A study of Mus musculus with 36 samples.

Results

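The 8 choroid plexus genes, Ttr, Kl, Folr1, Clic6, Aqp1, Otx2, Slc4a5 and Cldn2, were followed in whole mouse brain through experimental autoimmune encephalomyelitis (EAE), an induced autoimmune inflammation of the central nervous system. They were taken by the symbol of their Ensembl identifier from a count table of 54532 identifiers. All 8 were in the table and all 8 were among the 18438 genes with enough counts to be tested. The brains came from WT C57BL/6 mice at day 19, the peak of the disease. Farnesol EAE mice (n = 10) were gavaged daily with 100 mg per kg of trans,trans-farnesol, an isoprenoid alcohol, dissolved in corn oil. Vehicle EAE mice (n = 9) were gavaged with corn oil, untreated EAE mice (n = 9) were not gavaged, and naive mice (n = 8) had no EAE. In those 3 EAE groups the disease had been started by injecting a peptide of myelin oligodendrocyte glycoprotein, emulsified in complete Freund's adjuvant, together with pertussis toxin, and no group received adjuvant and toxin alone. The sources used here give neither age nor sex of the mice nor any link of brains to a shared cage or day, so the p-values measure the spread between these brains. The question was whether these genes followed the disease and its treatment or the amount of choroid plexus that each brain sample held.

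The choroid plexus is a frond of capillaries and stroma in each brain ventricle, covered by an epithelium that secretes the cerebrospinal fluid and forms the barrier between it and the blood. The epithelium makes its fluid by moving bicarbonate, chloride, sodium and water from blood to ventricle, and it exports carrier proteins and hormones into the fluid. It is also a known route by which T cells reach the cerebrospinal fluid in EAE. The choroid plexus was not dissected here, and it is a very small part of a brain, so its transcripts reach a whole-brain library in an amount set by how much of it was collected as well as by what its cells express. In such bulk samples fewer choroid plexus cells and less RNA per cell cannot be told apart.

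The 36 libraries held between 14705992 and 24211092 counts. They fell into 2 sets that no label names, told apart by the ribosomal RNA gene CT010467.1. Set 1 held farnesol replicates 1, 2 and 3 and all vehicle and untreated libraries, none above 2816 CPM of CT010467.1, where CPM are counts scaled by the total count of the library. CPM of the gene Sbp, used further below, are scaled by the total count alone too. All other CPM are scaled by the trimmed mean of M-values (TMM) as well. Set 2 held the other 7 farnesol libraries and all naive ones, none below 5157 CPM. Any difference of vehicle or untreated from naive brain is thus also a difference between sets. The mean log2 level of cerebellar genes was more than 1 below the group median in farnesol replicate 2, untreated replicate 3 and naive replicate 4, and genes of the pituitary and pineal summed to 1028 CPM in vehicle replicate 8 and 1607 CPM in untreated replicate 3, against at most 206 CPM elsewhere. Lcn2, an acute phase gene used here to check the labels, averaged 44.2 ± 12.5 CPM in farnesol EAE, 46.3 ± 17.2 CPM in vehicle EAE, 46.6 ± 16.9 CPM in untreated EAE and 0.222 ± 0.212 CPM in naive brains (SD). All 11 listed markers of neurons and glia passed the filter on low counts.

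Ttr encodes transthyretin, the thyroxine and retinol-binding protein carrier that the epithelium secretes into the cerebrospinal fluid. It lies at chr18:20665280-20674321 (GRCm38, plus strand) and was by far the most abundant member, at 574 ± 126 CPM per kilobase of exon over the 36 libraries (SD). Clic6, a member of the chloride intracellular channel family (chr16:92485736-92541243, plus strand), stood at 5.25 ± 1.11 CPM per kilobase. Kl, the membrane protein klotho that acts as a co-receptor for a fibroblast growth factor (chr5:150952607-150993817, plus strand), measured 3.28 ± 0.709 CPM per kilobase. Folr1, the folate receptor that carries folate into the cerebrospinal fluid (chr7:101858331-101870788, minus strand), measured 2.17 ± 0.590 CPM per kilobase.

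On the same scale Folr1, Otx2 and Aqp1 lay within their SD of one another, and so did Cldn2 and Slc4a5, the lowest of the 8. Otx2, a homeodomain transcription factor that the choroid plexus epithelium keeps expressing in the adult (chr14:48657677-48673819, minus strand), measured 1.91 ± 0.365 CPM per kilobase. Aqp1, the water channel of the apical membrane, which red blood cells also carry (chr6:55336432-55348555, plus strand), measured 1.86 ± 0.514 CPM per kilobase. Cldn2, the tight junction claudin that lets cations and water pass between cells (chrX:139800828-139811386, plus strand), measured 1.265 ± 0.297 CPM per kilobase. Slc4a5, an electrogenic sodium bicarbonate cotransporter (chr6:83219828-83304945, plus strand), measured 1.10 ± 0.302 CPM per kilobase. Otx2 shares 154 exonic bases with the antisense gene Otx2os1, which held 245 counts over all libraries, and 168 with the predicted gene Gm49154, which held 31 counts, against 5815 counts for Otx2. Since no source used here says whether counting used strand, reads of Otx2 and Otx2os1 cannot be told apart in those bases.

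The promoters are shown because the members varied together between brains and because Otx2 is itself a transcription factor of this epithelium. RefSeq windows of 250 bases before a transcription start (GRCm38.p6) were used for 5 of the 8 members, 8 windows in all, 4 of them at Otx2. No window of Ttr, Folr1 or Clic6 was searched. Both strands were searched for 3 motifs. They were the core bound by OTX2, TAATCC, which reads GGATTA on the other strand, the TATA box, TATAAA, which reads TTTATA, and the GC box, GGGCGG, which reads CCGCCC. No 2 matches shared a base. Of 32851 such windows over all genes, 6.25% held TAATCC, 12.37% held TATAAA and 32.74% held GGGCGG. Among the 8 windows, TAATCC was found in 1, an Otx2 window, TATAAA in 3 and GGGCGG in 3. Below are that Otx2 window (chr14:48665110-48665359, minus strand), the window of Aqp1, the one member called against naive brain without the index (chr6:55336049-55336298, plus strand), and the window of Kl, the member most like the other 7 (chr5:150952357-150952606, plus strand). The Aqp1 window ends at 55336298, while the gene coordinates given above begin at 55336432. No annotated Aqp1 transcript held the sequence that follows that window. Each is written 5′ to 3′ with the motif matches in capitals.
Otx2 window: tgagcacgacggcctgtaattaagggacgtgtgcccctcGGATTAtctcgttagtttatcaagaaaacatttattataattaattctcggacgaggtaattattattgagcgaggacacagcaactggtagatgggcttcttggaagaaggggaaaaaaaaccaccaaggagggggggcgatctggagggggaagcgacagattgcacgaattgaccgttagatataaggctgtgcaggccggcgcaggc
Aqp1 window: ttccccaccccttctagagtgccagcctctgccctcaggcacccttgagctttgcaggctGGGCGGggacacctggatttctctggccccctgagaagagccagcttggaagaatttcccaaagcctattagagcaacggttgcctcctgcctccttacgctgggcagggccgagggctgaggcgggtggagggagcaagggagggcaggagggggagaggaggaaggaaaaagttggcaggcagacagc
Kl window: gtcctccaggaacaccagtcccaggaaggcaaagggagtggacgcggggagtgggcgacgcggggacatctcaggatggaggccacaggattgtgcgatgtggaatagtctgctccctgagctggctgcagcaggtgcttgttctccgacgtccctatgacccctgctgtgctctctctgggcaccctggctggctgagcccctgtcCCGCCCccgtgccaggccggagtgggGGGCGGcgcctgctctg
A match describes the letters of the window and not a bound site. No OTX2 core was found in the Aqp1 and Kl windows, which says only that those letters are absent from these 250 bases.

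Each member varied more between brains of a group than most genes did. Within groups the SD of log2(CPM + 0.5) was 0.30 for Otx2 and Cldn2, 0.31 for Clic6, 0.32 for Kl and Aqp1, 0.35 for Ttr and Folr1, and 0.39 for Slc4a5, against a median of 0.18 over all 18438 genes. Between 74.5% (Otx2) and 91.8% (Slc4a5) of genes had a smaller SD.

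Ttr measured 463 CPM at its lowest, 725 CPM at the median and 889 CPM at its highest in farnesol EAE, 433, 699 and 975 CPM in vehicle EAE, 357, 610 and 996 CPM in untreated EAE, and 396, 657 and 842 CPM in naive brains. The 4 ranges overlapped almost wholly, and the lowest and the highest brain of all were both in untreated EAE. Slc4a5 measured 4.12, 7.18 and 11.2 CPM in farnesol EAE, 3.88, 5.82 and 8.57 CPM in vehicle EAE, 2.46, 5.81 and 8.26 CPM in untreated EAE, and 4.21, 5.88 and 8.93 CPM in naive brains. Its highest library, farnesol replicate 5, stood 4.56 times above its lowest, untreated replicate 2, the widest span of the 8 genes.

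Kl measured 21.1, 31.1 and 45.2 CPM (lowest, median and highest) in farnesol EAE, 18.7, 30.2 and 39.0 CPM in vehicle EAE, 20.7, 25.1 and 38.8 CPM in untreated EAE, and 23.9, 33.3 and 42.6 CPM in naive brains. Clic6 measured 16.6, 21.5 and 28.1 CPM in farnesol EAE, 13.2, 21.4 and 24.7 CPM in vehicle EAE, 13.2, 16.7 and 27.7 CPM in untreated EAE, and 13.95, 21.0 and 25.02 CPM in naive brains. Cldn2 measured 2.92, 4.23 and 7.05 CPM in farnesol EAE, 2.82, 4.56 and 5.14 CPM in vehicle EAE, 2.40, 3.96 and 5.26 CPM in untreated EAE, and 2.82, 4.31 and 4.71 CPM in naive brains. All 3 genes had their lowest median in untreated EAE, with ranges that overlapped those of every other group.

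Otx2 measured 4.69, 6.94 and 10.4 CPM in farnesol EAE, 7.47, 9.12 and 10.0 CPM in vehicle EAE, 3.31, 8.39 and 10.3 CPM in untreated EAE, and 5.90, 7.78 and 9.25 CPM in naive brains. Vehicle brains were the tightest group, and 6 of 10 farnesol brains lay below every vehicle brain. Folr1 measured 2.59, 4.99 and 6.40 CPM in farnesol EAE, 2.62, 4.51 and 6.56 CPM in vehicle EAE, 3.26, 4.40 and 6.38 CPM in untreated EAE, and 3.79, 6.90 and 7.58 CPM in naive brains. All 10 farnesol, all 9 vehicle and all 9 untreated brains lay below the naive median of Folr1, and 5 of 8 naive brains lay above every EAE brain.

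Aqp1 measured 3.20, 4.16 and 5.53 CPM in farnesol EAE, 2.34, 4.92 and 6.05 CPM in vehicle EAE, 3.20, 4.51 and 6.92 CPM in untreated EAE, and 3.92, 6.31 and 8.20 CPM in naive brains. All 10 farnesol brains, all 9 vehicle brains and 8 of 9 untreated brains lay below the naive median. The ranges still overlapped, since naive replicates 2, 4 and 8, at 4.97, 4.77 and 3.92 CPM, lay within the range of each EAE group. The counts behind these values ran over 49 to 126 per farnesol library, 53 to 127 per vehicle library, 47 to 164 per untreated library and 72 to 147 per naive library.

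**Figure D1:**
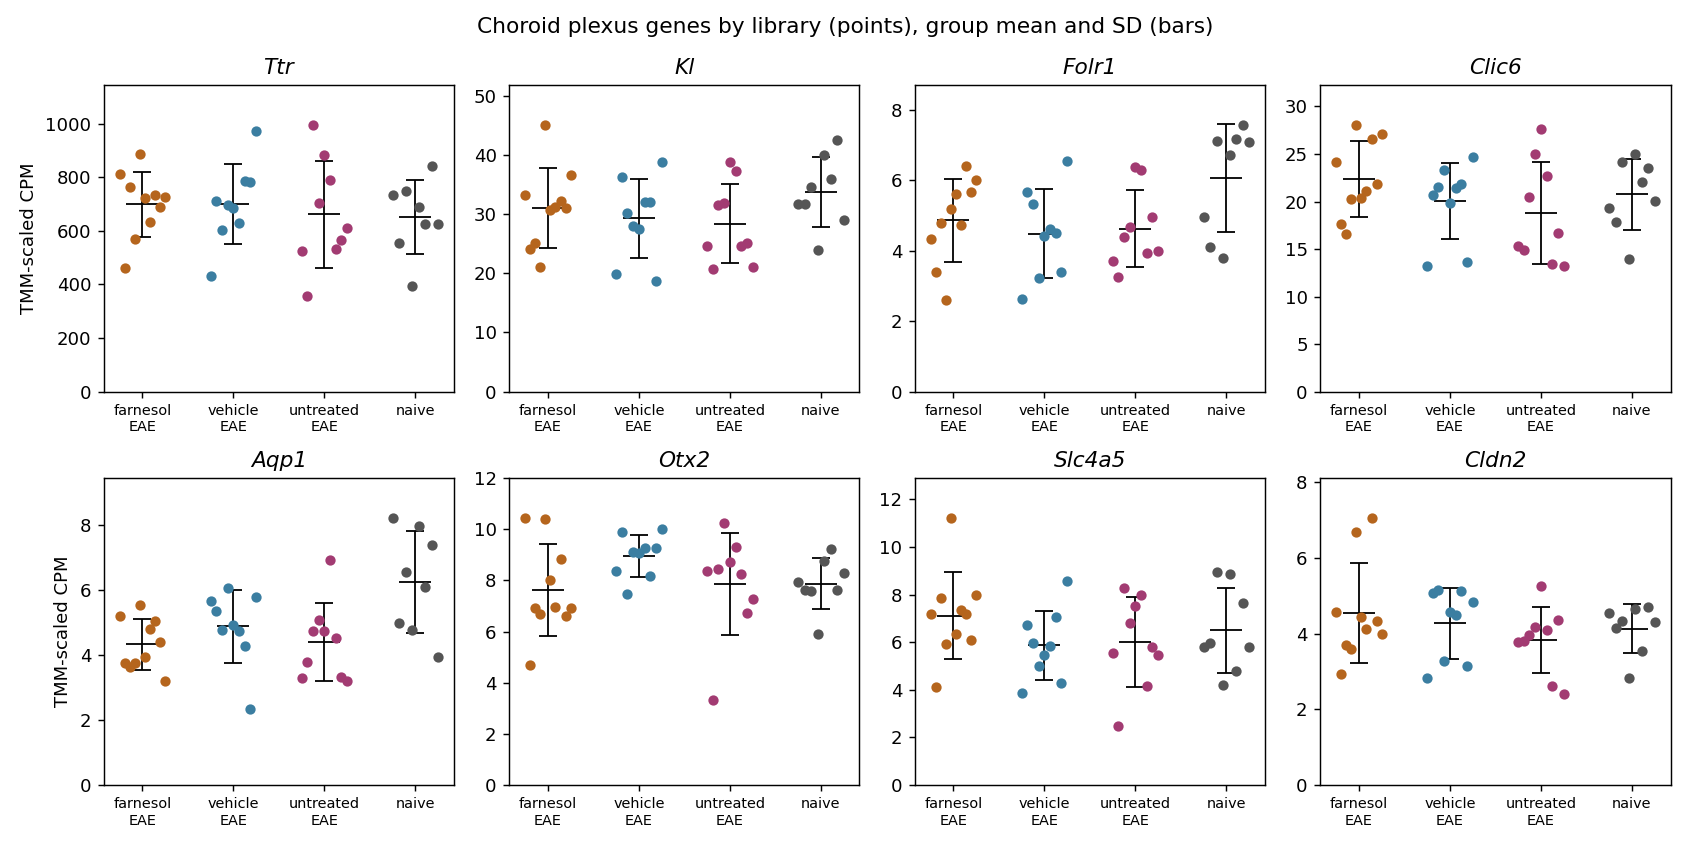
TMM-scaled CPM (vertical axes, from 0) of the 8 choroid plexus genes in each library (points) of farnesol EAE (n = 10), vehicle EAE (n = 9), untreated EAE (n = 9) and naive brains (n = 8), with the group mean and SD as bars. Aqp1, Folr1 and Kl have their highest median in naive brains, at 6.31, 6.90 and 33.3 CPM, and the ranges of all 8 genes overlap between groups.

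Against naive brain, Aqp1 was the one member that fell, and it did so in 2 of 3 groups with EAE. Changes are log2 ± SE from edgeR's quasi-likelihood test with Benjamini-Hochberg adjustment over all 18438 genes, and adjusted p below 0.05 counts as called. In farnesol EAE 1 of 8 members was called, where 34.2% of all genes were: Aqp1 averaged 4.32 ± 0.786 CPM in farnesol EAE and 6.23 ± 1.57 CPM in naive brains (SD), a change of -0.52 ± 0.16 (adjusted p = 0.0104). In untreated EAE 1 of 8 was called, where 24.9% of all genes were: Aqp1 averaged 4.39 ± 1.19 CPM in untreated EAE and 6.23 ± 1.57 CPM in naive brains, a change of -0.50 ± 0.16 (adjusted p = 0.0222). In vehicle EAE 0 of 8 were called by edgeR, where 31.5% of all genes were, and 2 had an unadjusted p below 0.05. There Aqp1 averaged 4.87 ± 1.11 CPM in vehicle EAE and 6.23 ± 1.57 CPM in naive brains, at -0.35 ± 0.16 (adjusted p = 0.0927). That Aqp1 passed in 2 groups and not in the other does not show that the groups differ: Aqp1 stood at 0.14 ± 0.16 in vehicle against untreated EAE and at -0.17 ± 0.16 in farnesol against vehicle EAE, neither called. The 3 comparisons share the same naive brains.

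The untreated result of Aqp1 rested on single brains. Without untreated replicate 9 it was -0.44 (adjusted p = 0.0518), without naive replicate 1 -0.43 (adjusted p = 0.0541) and without naive replicate 5 -0.44 (adjusted p = 0.0561), by the same edgeR test. Over all 36 libraries left out in turn its adjusted p ran between 0.00494 and 0.0561. The farnesol result kept its call in each of those 36 fits, with adjusted p between 0.00407 and 0.0290. Measured inside set 2 alone, with 7 farnesol and 8 naive brains, Aqp1 changed by -0.49 ± 0.16 (edgeR adjusted p = 0.0226), where 28.2% of genes were called. With library set as a term of the fit, Aqp1 changed by -0.50 in farnesol EAE (adjusted p = 0.0329), where 26.3% of genes were called. In the same fit its untreated change was -0.43 (adjusted p = 0.504) and edgeR called 0 of 8 members there, where 0.949% of genes were called, so for untreated EAE the set and the disease cannot be told apart.

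Folr1 was lower than in naive brain in each group but was not called by edgeR. It averaged 4.87 ± 1.18 CPM in farnesol EAE, 4.49 ± 1.26 CPM in vehicle EAE, 4.62 ± 1.10 CPM in untreated EAE and 6.07 ± 1.53 CPM in naive brains (SD). The changes were -0.32 ± 0.17 in farnesol (adjusted p = 0.148), -0.43 ± 0.18 in vehicle (adjusted p = 0.0558) and -0.39 ± 0.18 in untreated EAE (adjusted p = 0.102), by edgeR. The vehicle change passed with DESeq2 (-0.43, adjusted p = 0.0450) and with limma-voom (-0.45, adjusted p = 0.0289), and it passed when any one of vehicle replicates 2, 3 or 9, farnesol replicate 4 or naive replicates 1, 2 or 4 was left out of edgeR. Over the 36 libraries left out in turn its adjusted p ran between 0.0231 and 0.114. With library set as a term it was -0.13 (edgeR adjusted p = 0.861), where 3.71% of genes were called.

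The other 6 members were not called in any comparison with naive brain. Ttr stood at 0.10 ± 0.15 in farnesol, 0.10 ± 0.15 in vehicle and 0.02 ± 0.15 in untreated EAE, and the 95% intervals reached from -0.29 to 0.42 over the 3 comparisons. Kl stood at -0.12 ± 0.14 in farnesol, -0.20 ± 0.14 in vehicle and -0.25 ± 0.15 in untreated EAE, with adjusted p of 0.224 to 0.545. Clic6, Otx2, Slc4a5 and Cldn2 lay between -0.15 (Slc4a5, vehicle EAE) and 0.19 (Otx2, vehicle EAE), with adjusted p of at least 0.324. The median change of the 8 members was 0.03 in farnesol, -0.10 in vehicle and -0.13 in untreated EAE, against 0.01 in farnesol, 0.00 in vehicle and -0.01 in untreated EAE over all genes.

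Genes of other tissues were counted beside Aqp1 and Folr1, against 16.3% of all genes lower and 17.9% higher in farnesol, 15.2% and 16.3% in vehicle, and 11.3% and 13.6% in untreated EAE. Of 12 olfactory bulb genes, 10 were lower in farnesol, 4 in vehicle and 7 in untreated EAE and none were higher, and their summed level was 131 to 193 CPM in farnesol, 170 to 247 CPM in vehicle and 121 to 217 CPM in untreated EAE, against a naive range of 135 to 305 CPM. Of 20 genes of choroid stroma and leptomeninges, 9 were lower and 1 higher in farnesol, 6 and 1 in vehicle and 3 and 1 in untreated EAE, with sums of 847 to 1200 CPM in farnesol, 725 to 1280 CPM in vehicle and 929 to 1160 CPM in untreated EAE, against a naive range of 916 to 1190 CPM. The stroma counts in untreated EAE are near the shares over all genes. Of 6 red blood cell genes, a list added after the data were seen because red cells carry Aqp1, edgeR called 0 in each comparison and 0 had an unadjusted p below 0.05. They summed to 68.5 to 375 CPM in farnesol, 40.5 to 526 CPM in vehicle and 92.9 to 562 CPM in untreated EAE, against a naive range of 201 to 427 CPM. No gene of these 3 lists was at 0 in all 36 libraries. Their part in the Aqp1 and Folr1 values was not tested.

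Neither the gavage nor farnesol was followed by a called difference in any member. In farnesol against vehicle EAE, where 0.0922% of all genes were called, edgeR, DESeq2 and limma-voom each called 0 of 8 members, and 0 had an unadjusted p below 0.05. Ttr stood at -6e-04 there with a 95% interval of -0.30 to 0.30, so a difference of Ttr inside that interval was not excluded. The largest values were those of Slc4a5 (0.28 ± 0.18, adjusted p = 0.978) and Otx2 (-0.23 ± 0.13, adjusted p = 0.955). In farnesol against untreated EAE, where 1.87% of genes were called, the 3 tools called 0 of 8, with 0 at an unadjusted p below 0.05, and the members lay between -0.04 (Otx2) and 0.25 (Cldn2).

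Vehicle against untreated EAE lay wholly inside set 1. There 0.0217% of genes were called, the 3 tools called 0 of 8 members, 0 had an unadjusted p below 0.05, and the members lay between -0.04 (Folr1) and 0.19 (Otx2, ± 0.14). The 3 farnesol brains of set 1, set against the 9 vehicle brains, gave changes between -0.28 (Otx2, ± 0.18) and 0.13 (Slc4a5, ± 0.23), and edgeR called 0 of 8 members and 0% of genes. Set against the 9 untreated brains they gave changes between -0.15 (Folr1) and 0.09 (Slc4a5), with 0 of 8 members called, where 0.00542% of genes were.

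The amount of choroid plexus in each brain was approximated by an index, the mean log2(CPM + 0.5) of 16 other epithelial genes, none of them a member (Kcnj13, Kcne2, Prlr, Sostdc1, Trpv4, Calml4, Col8a1, Steap1, Tmem72, Car12, Slc13a4, F5, Abca4, Wdr86, Rdh5 and Mfrp). It was 2.31 at the lowest, 2.62 at the median and 2.99 at the highest in farnesol EAE, 2.24, 2.59 and 2.78 in vehicle EAE, 2.06, 2.44 and 2.81 in untreated EAE, and 2.31, 2.71 and 2.93 in naive brains. Within groups, the index shared 78.0% of the variance of Kl, 65.6% of Clic6, 64.1% of Slc4a5, 60.7% of Ttr, 56.4% of Otx2, 52.7% of Folr1, 44.5% of Cldn2 and 35.6% of Aqp1. The median over all genes was 3.42%, and 47 genes were over 50%. Per unit of index, the members moved by between 0.98 ± 0.23 (Aqp1) and 1.56 ± 0.22 (Slc4a5) log2 units, each with a 95% interval above 0.

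At equal index each of the 8 estimates against naive brain was higher than without the index in all 3 EAE groups. This brought those of Aqp1 and Folr1 nearer to 0. The shared direction is no separate result about the members. It follows from slopes above 0 and a median index lower in farnesol (2.62), vehicle (2.59) and untreated EAE (2.44) than in naive brains (2.71). In farnesol EAE 1 of 8 was called, where 35.7% of genes were, and it was again Aqp1 (-0.44 ± 0.13, edgeR adjusted p = 0.00856). In vehicle EAE 2 of 8 were called, where 33.2% of genes were, both higher: Otx2 (0.34 ± 0.11, adjusted p = 0.0106) and Ttr (0.31 ± 0.11, adjusted p = 0.0223). In untreated EAE edgeR called 0 of 8, where 25.5% of genes were, with 1 at an unadjusted p below 0.05, and Aqp1 stood at -0.34 ± 0.14 (adjusted p = 0.0664). Kl, the member that followed the index most closely, stood between -0.05 ± 0.08 and -0.02 ± 0.07 in the 3 comparisons.

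Aqp1 in farnesol EAE kept its call at equal index in all 36 fits with 1 library left out (edgeR adjusted p of 0.00287 to 0.0236) and in the 5 other settings tried (adjusted p of 0.00220 to 0.0233). The calls in vehicle EAE depended on how the index was built, and that of Ttr also on single brains. Ttr in vehicle EAE missed the threshold without vehicle replicate 9 (0.27, adjusted p = 0.0586) and without naive replicate 4 (0.27, adjusted p = 0.0693). With library set as a further term Otx2 stood at 0.24 and Ttr at 0.15 in vehicle EAE, and edgeR called 0 of 8 members, where 5.19% of genes were called. Otx2 in vehicle EAE kept its call in all 36 fits with 1 library left out (adjusted p of 0.00690 to 0.0232), and stood at 0.24 with the median of the index genes in place of their mean (adjusted p = 0.104). Aqp1 in untreated EAE passed without untreated replicate 6 (-0.43, adjusted p = 0.0298), without vehicle replicate 8 (-0.36, adjusted p = 0.0310) and without naive replicate 8 (-0.41, adjusted p = 0.0258), by the same edgeR fit. Clic6 in farnesol EAE passed without farnesol replicate 6 (0.22, adjusted p = 0.0440). Of the 16 index genes themselves, 2 were lower than in naive brains in farnesol EAE (Slc13a4 and Car12) and 3 in vehicle EAE (Slc13a4, Prlr and Car12). In untreated EAE 2 were lower (Slc13a4 and Prlr) and 1 higher (Trpv4). Of all genes 16.3%, 15.2% and 11.3% were lower in farnesol, vehicle and untreated EAE. Of all genes 13.6% were higher in untreated EAE.

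Between the groups with EAE, edgeR called no member at equal index. In farnesol against vehicle EAE, where 0.0922% of genes were called, 1 member had an unadjusted p below 0.05, Otx2 at -0.33 ± 0.10 (adjusted p = 0.289). In vehicle against untreated EAE, where 0.0325% were called, it was again Otx2, at 0.20 ± 0.10 (adjusted p = 0.551). In farnesol against untreated EAE, where 1.75% were called, 0 members had an unadjusted p below 0.05.

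**Figure D2:**
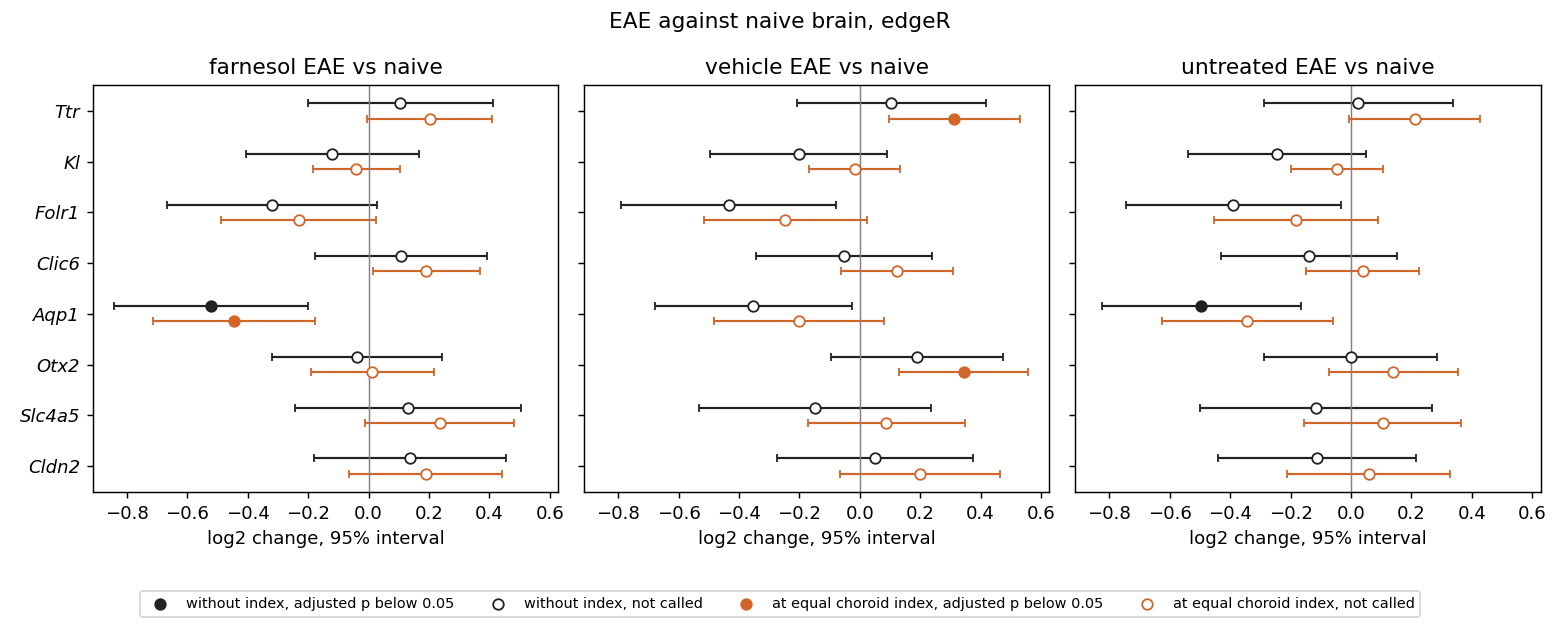
Log2 change against naive brain with its 95% interval (horizontal axis) for each choroid plexus gene in farnesol, vehicle and untreated EAE, without (black) and with (orange) the choroid index in the edgeR fit, where filled points have an adjusted p below 0.05. Aqp1 is filled without the index in farnesol (-0.52) and untreated EAE (-0.50), and with the index Aqp1 is filled in farnesol (-0.44) and Otx2 (0.34) and Ttr (0.31) in vehicle EAE.

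Within groups, the members tended to be high together and low together from brain to brain, though not every pair did so in vehicle EAE. Naive replicate 4 had the lowest naive value of 7 members, all but Aqp1. Untreated replicate 2 was lowest of its group for 5 members, vehicle replicate 1 for 5 and farnesol replicate 2 for 4, and farnesol replicate 4 was among its group's 3 lowest for all 8. At the other end, vehicle replicate 9 was highest of its group for 6 members, farnesol replicate 5 for 5, and untreated replicate 5 and naive replicate 7 for 4 each. Farnesol replicate 2 and naive replicate 4 are also 2 of the 3 libraries low in cerebellar genes. The third, untreated replicate 3, had the highest Ttr and Slc4a5 of its group.

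**Figure D3:**
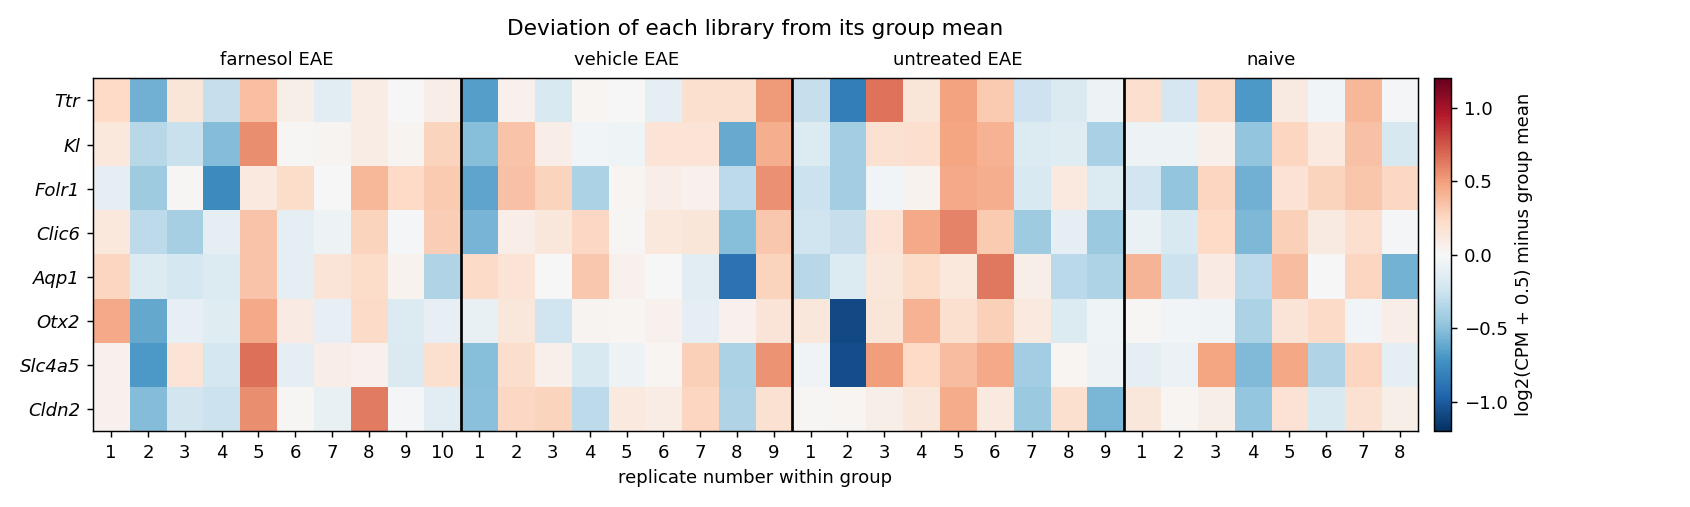
Deviation of each library from its group mean in log2(CPM + 0.5) (colour scale, log2 units) for the 8 genes (down) in the libraries of farnesol, vehicle and untreated EAE and naive brains (across, by replicate number). Most cells of a column share a colour, as in naive replicate 4, lowest of its group for 7 of 8 genes, and vehicle replicate 9, highest for 6 of 8.

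Taking group means out, the r of Ttr with each of the other 7 members was above 0 over the 36 libraries, and that with Aqp1 was near the threshold. The closest were Slc4a5 (Pearson r = 0.836, Spearman rho = 0.765), Kl (r = 0.711, rho = 0.701), Otx2 (r = 0.697, rho = 0.586), Clic6 (r = 0.679, rho = 0.705) and Folr1 (r = 0.657, rho = 0.566). In a permutation of libraries within groups (100000 resamples, two-sided) the adjusted p of r over the 7 relations was at most 5.6e-05 for these 5, where 1e-05 is the smallest unadjusted p the resamples can give. Cldn2 followed with r = 0.536 and rho = 0.542 (permutation p = 0.00100, adjusted p = 0.00117). Aqp1 was the least like Ttr, with r = 0.355 and rho = 0.517 (permutation p = 0.0472, adjusted p = 0.0472). Without the 2 libraries farthest from the median of Ttr, untreated replicate 2 and naive replicate 4, r was 0.767 for Slc4a5, 0.658 for Kl, 0.539 for Otx2, 0.637 for Clic6, 0.588 for Folr1 and 0.559 for Cldn2, while that of Aqp1 was 0.306 and no longer passed (permutation, adjusted p = 0.0991), with a rho of 0.429 (permutation, adjusted p = 0.0165). With the means of group and library set taken out, r was between 0.353 (Aqp1) and 0.837 (Slc4a5), and that of Aqp1 missed the threshold (permutation, adjusted p = 0.0522).

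**Figure D4:**
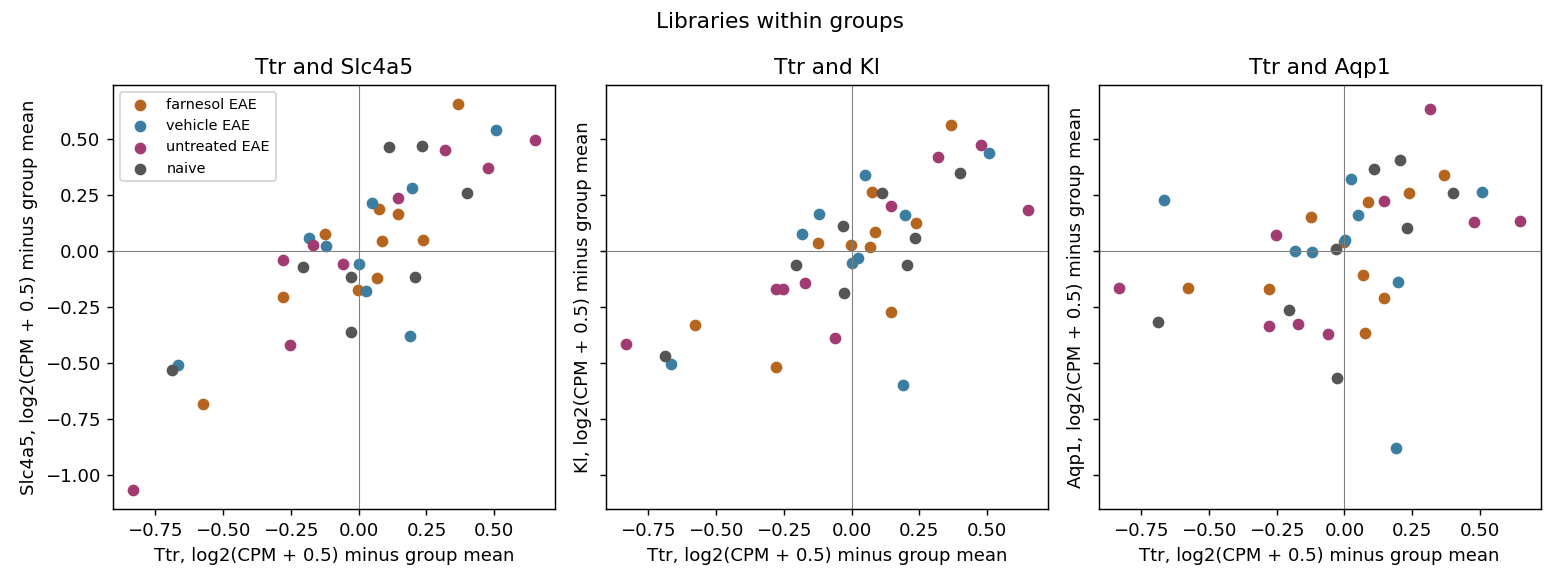
Deviations from the group mean in log2(CPM + 0.5) of Ttr (horizontal axes) against Slc4a5, Kl and Aqp1 (vertical axes), 1 point for each of the 36 libraries, coloured by group. The points of Slc4a5 (r = 0.836) and Kl (r = 0.711) lie along a line, and those of Aqp1 (r = 0.355) scatter more widely, with vehicle replicate 8 lowest.

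Over all 28 pairs of members r lay between 0.31 and 0.881, with a median of 0.657. The median within each group was 0.678 in farnesol, 0.531 in vehicle and 0.682 in untreated EAE and 0.701 in naive brains. The lowest pair stood at 0.214 in farnesol, -0.212 in vehicle (Ttr with Aqp1) and 0.099 in untreated EAE and at 0.279 in naive brains. Taken against its 7 fellows, Kl had the highest median r (0.733) and Aqp1 the lowest (0.402), with Otx2 next to lowest (0.498). These correlations share libraries and depth and are descriptions of the 36 brains.

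Vehicle replicate 8 and untreated replicate 3, the 2 libraries rich in pituitary and pineal genes, had the highest Ttr relative to the other members. Log2 Ttr stood 6.90 and 6.74 above the mean of the other 7 there, against 5.83 to 6.54 in the other 34 libraries. In vehicle replicate 8, Ttr measured 783 CPM, while Kl (18.7 CPM) and Aqp1 (2.34 CPM) were the lowest of the group. Without those 2 libraries the r of Ttr with Kl was 0.820, with Aqp1 0.479 and with the other 5 members 0.600 to 0.868. The part of these genes in the Ttr level was not tested.

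Ttr was set against lists of other tissues in the same way, with permutation p adjusted over 7 lists. Its r was 0.865 with the mean of 41 other choroid plexus epithelial genes (rho = 0.82, permutation, adjusted p = 7e-05) and 0.539 with genes of ependymal cilia, the ventricle lining that adjoins the choroid plexus (rho = 0.537, permutation, adjusted p = 0.00987). It was 0.338 with cerebellum (adjusted p = 0.108), 0.313 with pituitary and pineal (adjusted p = 0.150), 0.080 with choroid stroma and leptomeninges (adjusted p = 0.769) and -0.320 with olfactory bulb (adjusted p = 0.143), by the same permutation. With genes of T cells and monocytes, the cells that infiltrate the brain in EAE, it was 0.005 (permutation, adjusted p = 0.976). Without the 2 libraries farthest from the median, the epithelial list stood at 0.799, the cilia at 0.480 and the olfactory bulb at -0.412 (permutation, adjusted p = 0.0433). Cerebellum stood at 0.136 there (permutation, adjusted p = 0.655). Without the 2 libraries rich in pituitary genes, cerebellum stood at 0.592 (permutation, adjusted p = 0.00098). Untreated replicate 3, 1 of those 2, is itself low in cerebellar genes. The relation of Ttr to cerebellum thus depended on which libraries were left out.

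The 10 genes outside the 8 whose pattern over the 36 libraries was most like the members' mean, group means taken out, were Enpp2 (r = 0.931), Ace (r = 0.834), and then Tmem72, Mfrp, Kcne2, Col8a2, 1500015O10Rik, Cd59a, Trpm3 and Slc2a12, the last at r = 0.747. Enpp2 encodes autotaxin, the secreted enzyme that makes lysophosphatidic acid, Ace the angiotensin-converting enzyme and Kcne2 a potassium channel subunit. Of the 10, 7 are in the list of other choroid plexus epithelial genes, and Ace, Col8a2 and Cd59a are not. Among 18430 genes that are not members, 22 had r above 0.7 and the median was -0.005. Enpp2, the closest, stood at -0.17 ± 0.11 in farnesol, -0.22 ± 0.11 in vehicle and -0.24 ± 0.11 in untreated EAE against naive brain, and edgeR did not call it (adjusted p of 0.118 to 0.239).

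Of 42 other listed genes of the epithelium 41 were tested. In farnesol EAE 4 were lower and 0 higher, in vehicle EAE 4 lower and 0 higher, and in untreated EAE 3 lower and 2 higher, while over all genes 16.3% were lower and 17.9% higher in farnesol, 15.2% lower and 16.3% higher in vehicle, and 11.3% lower and 13.6% higher in untreated EAE. Their median change was -0.04 in farnesol, -0.09 in vehicle and -0.10 in untreated EAE. At equal index 4 were lower and 4 higher in farnesol, 4 lower and 4 higher in vehicle, and 3 lower and 2 higher in untreated EAE, in a fit whose index is made of 16 of these same genes and which called 35.7%, 33.2% and 25.5% of all genes in those 3 comparisons. In the comparisons among groups with EAE edgeR called 0 of 41 each, with 2 at an unadjusted p below 0.05 in farnesol against vehicle, 1 in farnesol against untreated and 0 in vehicle against untreated EAE.

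Slc13a4, a sulphate transporter, averaged 15.1 ± 0.807 CPM in farnesol, 16.2 ± 2.98 CPM in vehicle and 15.2 ± 1.64 CPM in untreated EAE and 20.3 ± 1.66 CPM in naive brains (SD). It fell by 0.42 ± 0.08 in farnesol (edgeR adjusted p = 0.000137), by 0.33 ± 0.08 in vehicle (adjusted p = 0.00267) and by 0.41 ± 0.08 in untreated EAE (adjusted p = 0.000344). Atp1b1, a sodium pump subunit that neurons also express, fell by 0.17 in farnesol, by 0.16 in vehicle and by 0.12 in untreated EAE (edgeR adjusted p of at most 0.00482). Prlr, the prolactin receptor, fell by 0.58 in vehicle EAE and by 0.53 in untreated EAE (edgeR adjusted p = 0.00654 and 0.0159), and averaged 12.5 ± 3.19 CPM in farnesol, 10.8 ± 2.66 CPM in vehicle and 11.2 ± 2.68 CPM in untreated EAE and 16.1 ± 4.69 CPM in naive brains. Within groups, r to the members' mean was 0.137 for Slc13a4, 0.215 for Atp1b1 and 0.54 for Prlr. Whole-brain RNA does not say in which tissue these genes fell.

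Car12, a carbonic anhydrase, fell by 0.28 in farnesol EAE and by 0.31 in vehicle EAE (edgeR adjusted p = 0.0198 and 0.0123), and Slc29a4, a monoamine transporter, fell by 0.29 in farnesol EAE (edgeR adjusted p = 0.0494), a call lost at equal index (-0.24, adjusted p = 0.0582). Cldn1, a barrier claudin that stromal barrier cells also express, was the opposite: it rose by 0.45 ± 0.16 in untreated EAE (edgeR adjusted p = 0.0310), to 4.00 ± 0.983 CPM against 2.92 ± 0.474 CPM in naive brains. The other gene higher in untreated EAE, Trpv4, a calcium-permeable channel named here after its values were seen, rose by 0.40 ± 0.15 (edgeR adjusted p = 0.0392). Within groups, r to the members' mean was 0.083 for Car12, 0.485 for Slc29a4, 0.509 for Cldn1 and 0.525 for Trpv4.

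Of 10 genes listed for leukocyte entry at the choroid plexus 8 were tested. Icam1, Vcam1, Madcam1, Mmp8 and Lcn2 were higher in each of farnesol, vehicle and untreated EAE than in naive brain, 5 of 8 where 17.9% of all genes were higher in farnesol, 16.3% in vehicle and 13.6% in untreated EAE. Cx3cl1, a membrane-bound chemokine that neurons express strongly, fell by 0.37 ± 0.08 in farnesol and by 0.34 ± 0.08 in vehicle EAE (edgeR adjusted p of at most 0.00225), and stood at -0.12 ± 0.08 in untreated EAE (adjusted p = 0.333). At equal index Cx3cl1 was lower in all 3 EAE groups, and Adora2a, an adenosine receptor gene, in vehicle (-0.55 ± 0.20, edgeR adjusted p = 0.0336) and untreated EAE (-0.66 ± 0.21, adjusted p = 0.0184). Within groups both ran against the members' mean, with r = -0.535 for Cx3cl1 and r = -0.394 for Adora2a. Their whole-brain values therefore do not show what choroid plexus cells expressed. Icam1, an adhesion molecule for leukocyte integrins, rose by 2.35 ± 0.29 in farnesol, 2.30 ± 0.30 in vehicle and 2.44 ± 0.30 in untreated EAE (edgeR adjusted p of at most 5.02e-07). Vcam1, the adhesion molecule for activated T cells, rose by 0.69 ± 0.14 in farnesol, 0.55 ± 0.14 in vehicle and 0.65 ± 0.14 in untreated EAE (edgeR adjusted p of at most 0.00252). Endothelium and other cells express both genes as well, and whole-brain RNA does not say where they rose. Of 16 genes of T cells and monocytes, 13 were higher in farnesol, 15 in vehicle and 15 in untreated EAE than in naive brain and 0 were lower. Between farnesol and vehicle EAE edgeR called 0 of these 8 genes and 0 had an unadjusted p below 0.05.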

How the data were processed

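Whole-brain RNA of 36 mice was sequenced, and the values analysed are the read counts per Ensembl gene that the authors deposited, 1 column for each library. Reads were aligned with STAR 2.5 to mm10 (GRCm38), per the submitters' processing notes, and the labels' protocol also names Kallisto. The counting tool, its annotation and its strand setting: not given in the sources used here. GENCODE M21 supplied gene symbols and coordinates and named 54495 of 54532 identifiers, holding 99.99% of counts. A short-read count of a gene depends on the counter's treatment of overlapping genes, which bears on Otx2.

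Genes were kept with edgeR's filter on low counts (minimum count 10, minimum total 15), libraries were scaled by TMM, and all 36 were fitted together with a group term in edgeR 4.0.16 (R 4.3.3, limma 3.58.1). P-values were adjusted by Benjamini-Hochberg over all 18438 genes, two-sided, with 0.05 as the threshold. DESeq2 1.42.0 and limma-voom with sample weights were alternatives. Correlations used log2(CPM + 0.5) with group means subtracted and 100000 permutations within groups, two-sided (Python 3.11.15, numpy 2.4.6, scipy 1.17.1). Fold changes of genes with few counts are less precise: Aqp1 had as few as 47 counts in a library.

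The fit was tested on simulated data for farnesol against vehicle EAE, with 18438 genes and 50 changed at each fold. Of genes changed 1.25-fold it recovered 36%, of those changed 1.5-fold 64%, of those changed 2-fold 84%, and of those changed 4-fold 100%. Of unchanged genes it called 3. Recovery of the choroid plexus genes by themselves was not tested. Each of them varied more within groups than at least 74.5% of all genes, so these shares may be too high for them.

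The 8 genes and all gene lists were chosen with earlier results of these data known. Besides the 8, genes were named by rule: of the other choroid plexus list up to 4 of smallest p in each comparison with naive brain, the 10 genes most like the members' mean, and Lcn2, Cd74 and CT010467.1. Icam1, Vcam1, Madcam1, Mmp8, Cx3cl1, Adora2a and Trpv4 were named after their values were seen. No 2 libraries held identical values, and 0 columns were left unassigned.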

Additional observations from a re-analysis of the deposited data

Results flagged for a closer look

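2 values of Aqp1 stood apart from their group by Dixon's test at the 95% level, among 32 gene and group sets tested, of which chance gives about 1 in 20. Aqp1 measured 2.342 CPM in vehicle replicate 8, the lowest of its 9 libraries, where the gap to the next was 0.518 of the range, and this gap and the one that follows are above Dixon's critical value. That library is also 1 of the 2 rich in pituitary and pineal genes. Aqp1 measured 6.918 CPM in untreated replicate 6, the highest of its 9 libraries, with a gap to the next of 0.498 of the range. Without vehicle replicate 8 or without untreated replicate 6, Aqp1 at equal index passed the threshold in untreated EAE against naive brain (edgeR adjusted p = 0.0310 and 0.0298). The part of either library's makeup in its Aqp1 value was not tested.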

How the results depend on the processing

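In farnesol EAE against naive brain, 1 member (Aqp1) was called in the fit of all libraries and under all 12 other settings tried. Vehicle EAE, with 0 called, gave 1 (Folr1) with the replicate block, limma-voom, DESeq2 or without libraries low in cerebellar genes, and 2 with the choroid index. Untreated EAE, with 1 called, gave 0 with the index, with library set as a term or without the libraries with over 1 CPM of Sbp, the spermine-binding protein gene, where Aqp1 stood at -0.46 (edgeR adjusted p = 0.145). Those libraries were untreated replicates 1 to 5 and vehicle replicates 3 to 5. Only untreated replicates 6 to 9 were left of that group, and with all libraries Aqp1 stood at -0.50. At equal index, untreated EAE, with 0 called, gave 3 (Kl, Folr1 and Aqp1, lower) with the median of the index genes, and 1 (Aqp1) with the mean of the other 7 members or without the libraries rich in pituitary genes, a setting added after the data were seen. Vehicle EAE, with Ttr and Otx2 higher, lost both with the median of the index genes and with the other 7 members, where the 1 called was Folr1, lower, gave 0 with library set as a term, and gave 3 with the replicate block, Folr1 being added. Farnesol EAE, with 1, gave 2, Folr1 being added with the median and with the replicate block and Clic6 with the other 7 members. Replicate numbers gave no sign of pairing: 22 of 51 same-numbered pairs had a correlation above 0.1, with a range of -0.653 to 0.503.

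With 1 library left out in turn, the members called ranged from 1 to 1 in farnesol, 0 to 1 in vehicle and 0 to 2 in untreated EAE against naive brain, and at equal index from 1 to 2 in farnesol, 1 to 2 in vehicle and 0 to 1 in untreated EAE. The 3 comparisons among groups with EAE gave 0 throughout. No change reversed its direction while called. The cause of these differences between settings was not tested. Aqp1, Folr1, Cldn2, Otx2 and Slc4a5 rest on the fewest counts, which limits their precision.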
